A study of Homo sapiens with 4 samples.

Results

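The dual-specificity phosphatases (DUSP), Sprouty (SPRY) and Sprouty-related EVH1 domain (SPRED) genes include many feedback inhibitors of MAP kinase signalling, although several DUSPs have other roles. By symbol, 31 protein-coding genes of the 20046 in the annotation belonged to them, with 24 DUSP, 4 SPRY and 3 SPRED genes. Their m6A peaks were examined in meRIP-seq of OE-19 cells, an established cell line of adenocarcinoma of the esophagogastric junction (AEG). In this assay, fragments of RNA with N6-methyladenosine (m6A) are enriched with an antibody, and the places where they pile up are called as peaks. The cells were grown in RPMI1640 with fetal bovine serum and the labels name no treatment apart from fixation with UV. Of the 4 samples, 2 were replicates of the m6A immunoprecipitation (IP) and 2 of the input. A list of 24607 peaks came from IP replicate 1 and a list of 19318 from IP replicate 2, while the input samples were not analysed here. The study calls the replicates biological, and the labels do not say whether they were separate cultures. All values come from 1 line and 1 group, so they are given as descriptions without tests.

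Growth factor receptors activate RAS, which starts the kinase cascade of RAF, MEK and ERK. Active ERK induces genes that shut the cascade down again. Sprouty and SPRED proteins act near the receptor and RAS, where SPRED1 recruits the RAS inactivator NF1 to the membrane. The MAP kinase phosphatases (MKPs), a subset of the DUSPs, remove phosphates from ERK, JNK or p38 themselves. The other, atypical DUSPs lack the docking domain for MAP kinases, and several act on other substrates. Transcripts of many of these genes are short-lived, and m6A in mRNA is known to influence decay and, through readers such as IGF2BP3, stability. Peak lists do not measure RNA levels. A gene without a peak may be silent or unmodified, which cannot be told apart here. Of the epithelial markers, CDH1 had an exonic peak in both lists and KRT8, KRT18 and EPCAM had none.

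An exonic m6A peak was found in both replicates for 17 of the 31 genes (54.8%, 95% Wilson confidence interval 37.8% to 70.8%). Over all protein-coding genes the share was 33.4%, and adjusted for exonic length it was 31.0%, or 9.6 genes of 31. Both values include genes that may be silent in these cells, and neither is adjusted for RNA level, which the lists do not measure. In replicate 1, 20 genes (64.5%) had a peak, against 42.4% of all protein-coding genes. In replicate 2, 18 genes (58.1%) had one, against 34.1%. The interval treats genes as independent, which related genes with similar structure are not. When a fold enrichment of 5 or more was required, the number in both replicates was 10 (32.3%, against 19.3% of all genes). Longer genes had peaks more often, and the 17 genes had a median exonic length of 4960 nt, compared with 2206 nt for the 10 genes without a peak. When all genes were divided by exonic length into 5 equal bins, 4 of 6 members between 2154 and 3610 nt had a peak in each list, against 26.1% of all genes of that length. From 3611 to 5342 nt it was 5 of 8 against 35.6%, and from 5343 to 8032 nt 7 of 9 against 44.8%. Among the shortest it was 1 of 7 against 11.3%, and SPRY3 was the only member in the longest bin, with a peak in replicate 2 alone.

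**Figure D1:**
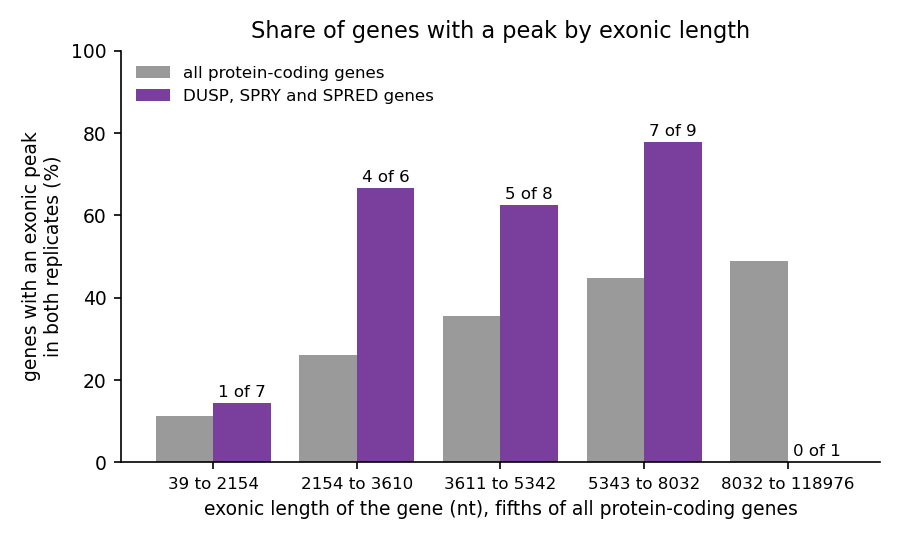
Percent of genes with an exonic m6A peak in both replicates (y axis) by exonic length in 5 equal bins (x axis, nt), for all protein-coding genes (grey) and the DUSP, SPRY and SPRED genes (purple, with their numbers above the bars). In bins 2, 3 and 4 the members stand at 66.7%, 62.5% and 77.8%, above the 26.1%, 35.6% and 44.8% of all genes, and each bar of the members rests on at most 9 genes.

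By function, 8 of the 10 MKPs had a peak in both replicates, beside 3.15 genes adjusted for length, and DUSP2 and DUSP9 had none. All 3 JNK and p38 phosphatases (DUSP8, DUSP10 and DUSP16) were among the 8, as were 2 of the 3 ERK-selective cytoplasmic enzymes (DUSP6 and DUSP7) and 3 of the 4 nuclear inducible ones (DUSP1, DUSP4 and DUSP5). All 3 SPRED genes and 3 of the 4 Sprouty genes had peaks in both, beside 1.31 and 1.56 genes adjusted for length. Of the 14 atypical DUSPs, DUSP3, DUSP14 and DUSP18 did, beside 3.58 genes. DUSP11, DUSP12 and DUSP28 had peaks in replicate 1 alone, as did 9.02% of all protein-coding genes. DUSP13, DUSP15, DUSP19, DUSP21, DUSP22, DUSP23, DUSP26 and DUSP29 had no exonic peak. The atypical genes had a median exonic length of 3073 nt and the MKPs 3343 nt. The adjusted numbers take length into account and not RNA level. The groups are small, and differences between them were not tested.

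To show the sequence under the strongest peaks, windows of 101 nt centred on the replicate 1 summit are given for the members with the largest enrichment in coding sequence (CDS). Shorter sites of 30 nt around the GGAC nearest to the summit are given for DUSP18, DUSP5 and DUSP1. Of the shared peaks with a replicate 1 summit beyond the stop codon, theirs had the largest enrichment over both replicates. DUSP3 came next, but has no GGAC within 50 nt of its summit, and no site is given. Other members with a summit there, such as SPRED3 and DUSP4, had lower values and are not shown. The GGAC in these shorter sites thus follows from how they were chosen. Letters are on the strand of the gene, 5′ to 3′, from hg38. Capitals mark matches to the m6A consensus DRACH, in which D stands for any base but C, R for a purine and H for any base but G. GGAC is its commonest core.

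SPRY1, chr4:123401808-123401908, plus strand, exon 3: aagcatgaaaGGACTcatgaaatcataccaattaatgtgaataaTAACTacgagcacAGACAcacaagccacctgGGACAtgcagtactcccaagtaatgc
DUSP16, chr12:12477384-12477484, minus strand, exon 7: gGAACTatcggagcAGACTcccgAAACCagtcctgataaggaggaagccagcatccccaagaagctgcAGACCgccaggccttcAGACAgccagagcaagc
SPRED1, chr15:38351180-38351280, plus strand, exon 7: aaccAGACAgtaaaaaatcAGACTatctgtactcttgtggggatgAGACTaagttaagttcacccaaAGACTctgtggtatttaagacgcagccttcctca
SPRY4, chr5:142314332-142314432, minus strand, exon 3: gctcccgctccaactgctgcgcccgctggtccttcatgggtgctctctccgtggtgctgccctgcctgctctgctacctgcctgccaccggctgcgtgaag
SPRED2, chr2:65313791-65313891, minus strand, exon 6: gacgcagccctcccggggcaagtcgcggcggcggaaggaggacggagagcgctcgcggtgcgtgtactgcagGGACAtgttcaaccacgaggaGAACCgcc
DUSP18, chr22:30663649-30663749, minus strand, exon 2: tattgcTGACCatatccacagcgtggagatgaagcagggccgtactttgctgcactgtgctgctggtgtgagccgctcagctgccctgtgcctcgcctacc
DUSP18, chr22:30661721-30661750, minus strand, exon 2: ctcttggtgccaaGGACCtggctgaAGACC
DUSP5, chr10:110510595-110510624, plus strand, exon 4: gggtaggttctcgGGACTgaaggaaggcca
DUSP1, chr5:172768709-172768738, minus strand, exon 4: tcacatcccattgGGACTccatgctccttg

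The windows differed in motif content. The SPRY1 window held 4 DRACH matches, 2 of them with GGAC. DUSP16 and SPRED1 held 5 and 4 DRACH matches and no GGAC. The SPRED2 window held 2 GGAC, of which 1 is followed by G and is no DRACH match. The SPRY4 window held neither within 50 nt of the summit, although its peak was among the widest of the group. A missing match says only that these letters are not in the window. Over all summits of the members, GGAC lay within 50 nt of 22 of 50 in replicate 1 (44%, interval 31.2% to 57.7%) and 18 of 33 in replicate 2 (54.5%, 38% to 70.2%). Among all protein-coding summits the shares were 49.7% and 51.7%, inside both intervals. The reverse complement, GTCC, was found at 26.0% and 24.2% of the members' summits, against 31.5% and 29.5% of all. DRACH was found at 86.0% and 93.9%, against 85.5% and 88.8%. GGAC occurred 7.72 and 7.8 times per kb of summit window, against 6.77 and 7.05 for all protein-coding summits. Over the whole spliced transcripts of the 17 genes with a peak in both replicates it was 4.22 per kb, and no such value is given for all genes. The windows are genomic and come from all members with a peak, so the basis of these densities differs. The GC content of the windows was 58.5% and 59.7%, against 57.8% and 56.1% for all protein-coding summits.

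Next, the strength of the peaks was compared. Exonic peaks of the members numbered 50 in replicate 1 and 33 in replicate 2. Their median fold enrichment was 5.22 in replicate 1, beside 5.21 for all exonic peaks of protein-coding genes, and 4.16 in replicate 2, beside 4.72. Fold enrichment is the authors' ratio at the summit over the local background, and quartiles of the members were 3.61 and 6.77 in replicate 1 and 2.94 and 5.85 in replicate 2. Values ran from 1.57 to 18.5 in replicate 1 and from 1.58 to 17.7 in replicate 2. Over all exonic peaks the values ran from 1.34 to 30.4 and from 1.35 to 38.1. The highest values of the members in replicate 1 belonged to DUSP18, DUSP1 and DUSP5.

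**Figure D2:**
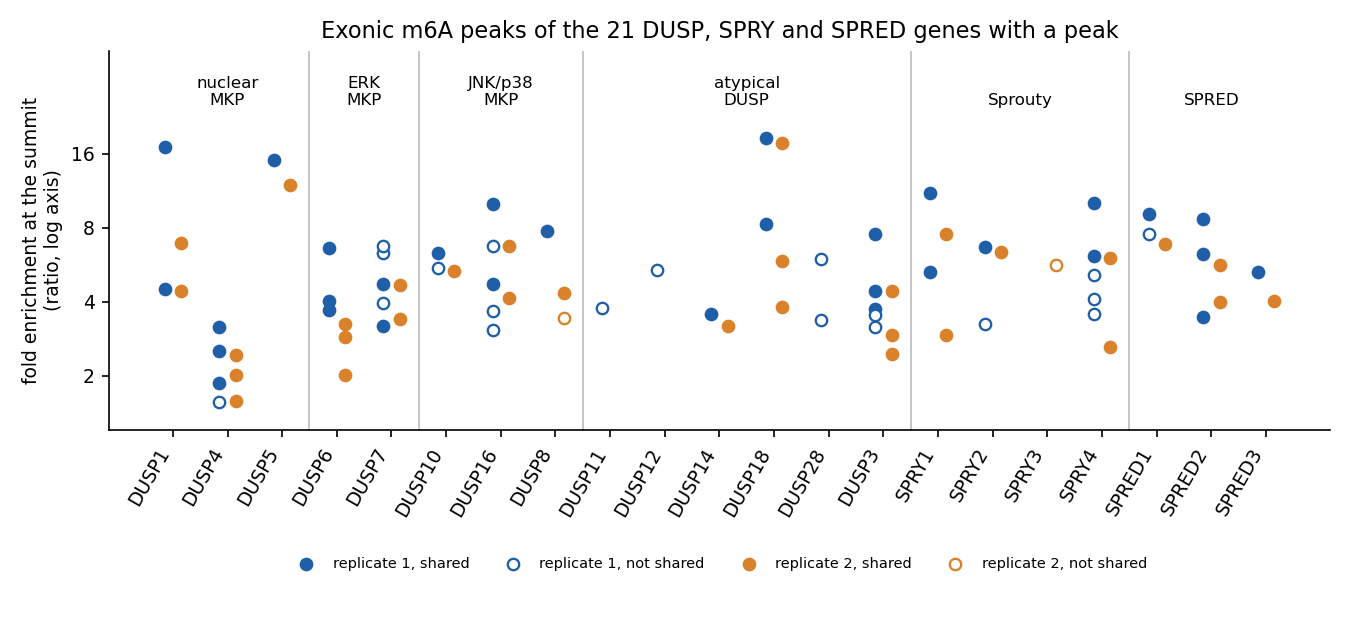
Fold enrichment at the summit (y axis, ratio on a log axis) of each exonic peak of the 21 genes with a peak in either replicate (x axis), grouped by function. MKP stands for MAP kinase phosphatase. Points are single peaks of replicate 1 (blue) and replicate 2 (orange), filled where the peak overlapped one of the other replicate. DUSP18, DUSP1 and DUSP5 reach 18.5, 17.0 and 15.1 in replicate 1, while no DUSP4 peak exceeds 3.16.

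Among the nuclear inducible MKPs, DUSP1 and DUSP5 carried a strong peak near the stop codon. DUSP1, an immediate-early gene whose product acts on p38, JNK and ERK, lies at chr5:172768096-172771195 on the minus strand. Its main peak reached a ratio of 17.0 in replicate 1 and 6.91 in replicate 2. Counted from the start of the stop codon, the summits lay 10 nt downstream in replicate 1 and 15 nt upstream in replicate 2, both in exon 4. The replicate 1 value was at percentile 98.4 of all exonic peaks and the replicate 2 value at percentile 77.4, and the log2 ratio of 1.3 was the largest of the members. A weaker DUSP1 peak in exon 1 had 4.51 and 4.41, with its summit 65 nt into the CDS in replicate 1 and 32 nt before the start codon in replicate 2. DUSP5, a nuclear phosphatase specific for ERK, had 1 peak in each list, with 15.1 in replicate 1 and 11.9 in replicate 2. Its summits were 205 and 155 nt past the start of the stop codon in exon 4, at percentiles 97.3 and 96.9.

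DUSP4, the third of these with a peak, showed many weak peaks. Its strongest, 106 nt past the start of the stop codon at the identical summit in both replicates, had 3.16 and 2.43. Despite the low ratio, −log10 q was 30.3 and 22.7. The peak in exon 1 had 2.52 and 2.02 and that in exon 3 had 1.87 and 1.58, at percentiles 1.31 and 0.425 of all exonic peaks. A peak in exon 2 with 1.57 was seen in replicate 1 alone.

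The ERK-selective MKPs DUSP6 and DUSP7 had peaks at similar places along related genes. Both have 3 exons, and both carried a shared peak in exon 2 and a shared peak in exon 3 close to the stop codon. For DUSP6, the cytoplasmic phosphatase that is itself an ERK target, the exon 2 peak had 6.6 in replicate 1 and 2.87 in replicate 2. Its exon 3 peak had 3.7 and 3.26, and its exon 1 peak 4.04 and 2.02. The exon 1 summits of DUSP6 also lay in an exon of the long non-coding RNA ENSG00000274021 on the opposite strand, so their gene is uncertain. For DUSP7 the exon 2 peak had 3.18 and 3.39 and the exon 3 peak 4.73 and 4.67. An exon 1 peak of DUSP7 (3.96) and 2 peaks in its 3′ UTR (6.77 and 6.31) were seen in replicate 1 alone.

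Relative to the codon of the active-site cysteine, the exon 2 summits lay 329 and 346 nt upstream in DUSP6 and 228 and 330 nt upstream in DUSP7, replicate 1 given first. The exon 3 summits lay 155 and 102 nt downstream of it in DUSP6 and 173 and 331 nt downstream in DUSP7. The cysteine was located from the signature of the phosphatase family (histidine and cysteine, then glycine and arginine each after 2 other residues), found once in 23 of the 24 DUSP coding sequences.

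The JNK and p38 phosphatases had their strongest peaks inside coding sequence. DUSP16 had 9.97 in replicate 1 and 6.72 in replicate 2 in exon 7, with summits 599 and 627 nt before the stop codon. The peak was 1235 and 1103 bp wide, and the coding part of this last exon is 1180 nt long. DUSP8 had 7.73 and 4.35 in its own exon 7, with summits 782 and 779 nt before the stop codon, in a window with a GC content of 83.2%. DUSP10 differed, with 6.34 and 5.33 in exon 2, an internal exon of 854 nt, and with a peak of 5.48 in exon 3 in replicate 1 alone. The DUSP16 and DUSP10 proteins bind JNK and p38 with their N-terminal docking domain, and DUSP8 is known from brain and heart. DUSP16 also had a shared peak at the start codon in exon 2 (4.72 and 4.16), with the summit 21 nt before it in replicate 1 and 73 nt after it in replicate 2. In replicate 1 alone it had 2 peaks in exon 1 (6.77 and 3.07) and 1 in the 3′ UTR (3.68). A second DUSP8 peak, with 3.44 and its summit 22 nt before the start codon, was in replicate 2 alone.

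Among the atypical DUSPs, DUSP18 had the strongest peak of all the members. It lay in the 3′ UTR, with 18.5 in replicate 1 (chr22:30661597-30662614) and 17.7 in replicate 2 (chr22:30661625-30662507). The summits were 4 bp apart, 1679 and 1683 nt past the start of the stop codon, and at percentiles 99.0 and 99.6 of all exonic peaks. A second shared peak in the DUSP18 CDS had 8.32 and 5.85. DUSP18 and DUSP14 each carry their whole CDS in the last of 2 exons, and in both the CDS summit was close to the active-site codon. It was 5 and 23 nt upstream of the cysteine codon in DUSP18, and 38 and 36 nt upstream in DUSP14, where the fold enrichment was 3.57 and 3.2. The codon starts at nt 310 of 564 in the DUSP18 CDS and at nt 331 of 594 in that of DUSP14. The DUSP18 peak was 1000 and 384 bp wide and the DUSP14 peak 233 and 254 bp. A further DUSP18 peak of replicate 2 (3.82) had its summit in an exon of SLC35E4 on the opposite strand as well, so its gene is uncertain. It lay within the 1000 bp CDS peak of replicate 1, which therefore also overlaps that exon, although the summit of the CDS peak does not.

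DUSP3, a small phosphatase also called VHR, had peaks spread along a 3′ UTR of 3487 nt. Its 3 shared peaks had 7.58 and 4.43, 4.42 and 2.46, and 3.75 and 2.93, with replicate 1 summits at 1056, 473 and 3217 nt past the start of the stop codon. No GGAC lay within 50 nt of any of these 3 summits. Peaks of 3.52 and 3.17 were in replicate 1 alone. The replicate 1 peaks of DUSP11 (3.76), DUSP12 (5.37) and DUSP28 (5.99 and 3.36) had no counterpart in replicate 2. DUSP11 acts on RNA 5′ ends and DUSP12 is a zinc-binding phosphatase. The DUSP12 summit and the weaker DUSP28 summit also lay in exons of ATF6-DT and ANKMY1 on the opposite strand.

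The Sprouty genes, whose products block signalling between receptor and RAF, carried their strongest peak within the coding sequence. This sequence lies in the last exon, whole in SPRY1, SPRY2 and SPRY3 and all but its first bases in SPRY4. SPRY1 had 11.1 in replicate 1 and 7.53 in replicate 2, with summits 691 and 726 nt before the stop codon of a CDS of 957 nt. SPRY2 had 6.7 and 6.4, with summits 349 and 343 nt before the stop codon. SPRY4 had 10.1 and 6.01, 171 and 158 nt before the stop codon, in peaks of 1332 and 1333 bp. SPRY3 had no peak in replicate 1 and 1 in replicate 2 (5.62), 777 nt before the stop codon. The summit position along the CDS thus differed between the paralogues, from its first part in SPRY3 and SPRY1 to near the end in SPRY4. The peaks themselves were broad, also in SPRY1 (1304 and 978 bp) and SPRY2 (871 and 777 bp). In SPRY1, SPRY2 and SPRY4 they covered most of the CDS, and SPRY3 rests on 1 unshared peak.

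Other Sprouty peaks lay outside the CDS. A second shared SPRY1 peak (5.3 and 2.94) was in an upstream exon that the transcript with the longest CDS does not use. SPRY4 had a shared peak 2758 and 2771 nt past the start of the stop codon (6.16 and 2.63). In replicate 1 alone, SPRY4 had peaks of 5.14 and 4.09 in the 3′ UTR and of 3.58 in the 5′ UTR, and SPRY2 had 1 of 3.25 in an upstream exon.

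SPRED1 and SPRED2, which share the C-terminal Sprouty domain with the Sprouty proteins, also carried their strongest peak in CDS of the last exon. SPRED1 had 9.12 in replicate 1 and 6.9 in replicate 2, with summits 432 and 398 nt before the stop codon in the last of 7 exons. SPRED2 had 8.69 and 5.67 in its last exon. Its transcript with the longest CDS is incomplete, and on the Ensembl canonical transcript the summits were 338 and 522 nt before the stop codon. A second shared SPRED2 peak, with 6.28 and 3.98, lay in the 5′ UTR of that canonical transcript, 418 and 404 nt before the start codon. SPRED3, the weakest of these, had 5.31 and 4.04, with summits 63 nt past and 160 nt before the start of the stop codon. A SPRED1 peak of 7.57 in an alternative exon was in replicate 1 alone, and a SPRED2 peak of 3.46 in exon 5 was shared with a replicate 2 peak whose summit fell 3 nt outside that exon.

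The reproducibility of these peaks was then examined. In replicate 2, 31 of the 33 exonic peaks (93.94%, interval 80.4% to 98.3%) overlapped a replicate 1 peak, beside 95.89% of all exonic peaks of protein-coding genes. In replicate 1, 31 of 50 (62.0%, 48.2% to 74.1%) overlapped a replicate 2 peak, beside 60.63%. The shared replicate 1 peaks had a median of 6.16 and the 19 unshared ones 3.96, with 6.47 and 3.96 over all. The 2 unshared peaks of replicate 2 were those of SPRY3 and of the DUSP8 5′ UTR. With summits within 100 bp as the criterion, 75.8% of the replicate 2 peaks were shared, beside 79.0% over all.

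In total, 30 pairs of exonic member peaks were each other's largest overlap. Of these, 29 had the higher value in replicate 1, and the exception was DUSP7 exon 2. Of all 10855 exonic pairs, 80.6% were higher in replicate 1. The median log2 ratio of replicate 1 over replicate 2 was 0.40 for the members and 0.44 for all pairs, so the shift was of similar size. It ran from −0.09 in DUSP7 to 1.3 in DUSP1, 1.23 in the distal SPRY4 peak and 1.2 in DUSP6 exon 2. Across the 30 pairs, which share the libraries and in part the gene, Pearson's r of log2 fold enrichment was 0.882, compared with 0.705 across all pairs. The summits of a pair were a median of 31 bp apart, beside 26 bp over all.

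**Figure D3:**
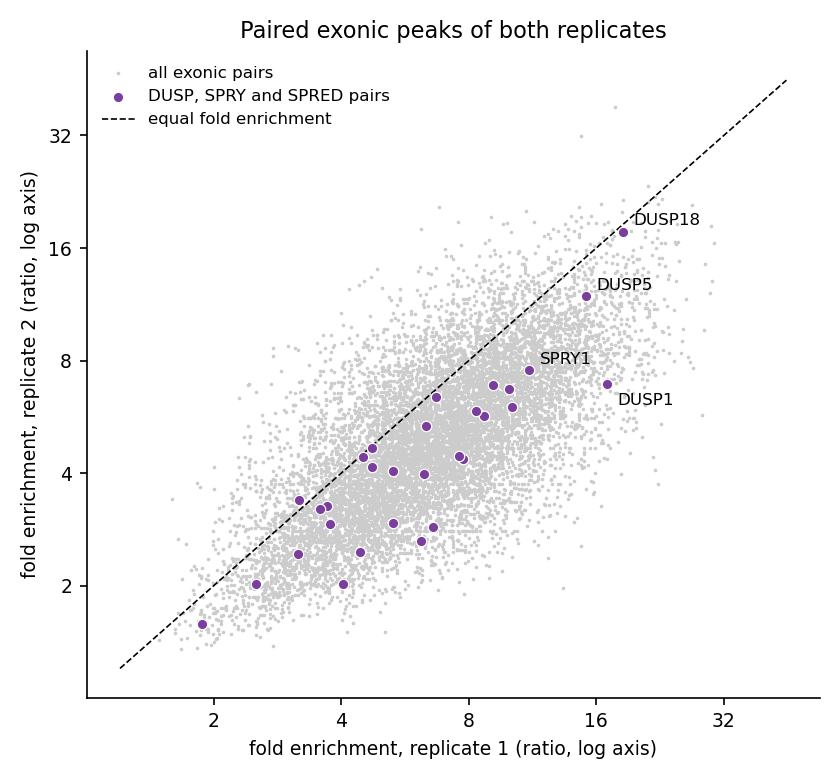
Fold enrichment in replicate 1 (x axis) and replicate 2 (y axis), both as ratios on log axes, of exonic peaks that are each other's largest overlap. Grey points are all 10855 pairs in protein-coding genes, purple points are the 30 pairs of the members, and the dashed line marks equal values. All but 1 of the purple points lie below the line, and DUSP1, at 17.0 and 6.91, is the farthest from it.

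Finally, the position of the summits along the transcript was described. This covered 46 summits in replicate 1 and 31 in replicate 2, since the others lay outside the transcript with the longest CDS. The SPRED2 summits were counted on its incomplete transcript, and on canonical transcripts the shares in the last exon and near the stop codon stayed within their intervals. CDS outside the stop codon window of 200 nt on each side held 45.7% of the summits in replicate 1 (interval 32.2% to 59.8%) and 51.6% in replicate 2 (34.8% to 68.0%). It made up 28.0% and 27.2% of the length of these transcripts, with each gene weighted by its summits. The stop codon window held 17.4% of the summits in replicate 1 (9.09% to 30.7%) and 22.6% in replicate 2 (11.4% to 39.8%), on 11.6% and 11.4% of the length. Over all protein-coding genes it held more, 24.46% and 27.07% of summits on 11.8% and 11.2% of the length, which lies within the intervals of the members. At a fold enrichment of 5 or more, the members had 3 of 23 and 3 of 12 summits there, beside 26.2% and 27.2% over all. Within 100 nt of the stop codon they had 10.9% and 6.45%, beside 14.5% and 16.2%. The rest of the 3′ UTR held 28.3% and 19.4% of the summits but 50.6% of the length in each replicate. All protein-coding genes likewise had fewer summits there than length, with 18.0% and 19.7% of summits on 34.6% and 35.9% of the length. Over all protein-coding genes, CDS held 48.6% and 47.5% of summits and 46.5% and 45.8% of the length. The summit shares of the members in CDS were thus close to those of all genes, whereas CDS was a smaller part of their transcripts.

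**Figure D4:**
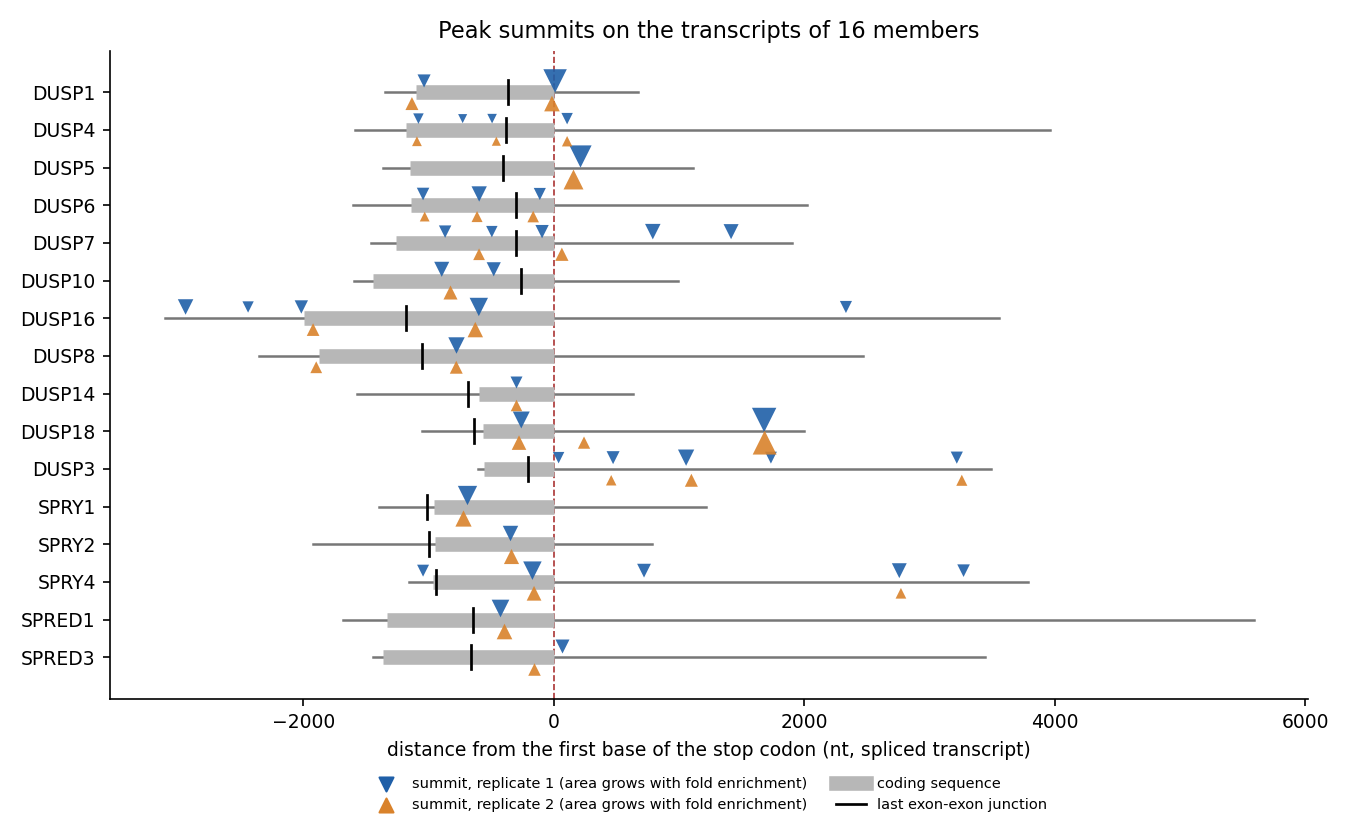
Position of each peak summit on the spliced transcript with the longest CDS (x axis, nt relative to the stop codon) for 16 of the 17 genes with a peak in both replicates. SPRED2, whose longest-CDS transcript is incomplete, is left out. Grey bars are CDS, black ticks the last junction, and triangles the summits of replicate 1 (blue) and replicate 2 (orange), larger for higher fold enrichment. In SPRY1, SPRY2, SPRY4, SPRED1, DUSP8 and DUSP16 the largest triangles lie in CDS to the right of the last junction.

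**Figure D5:**
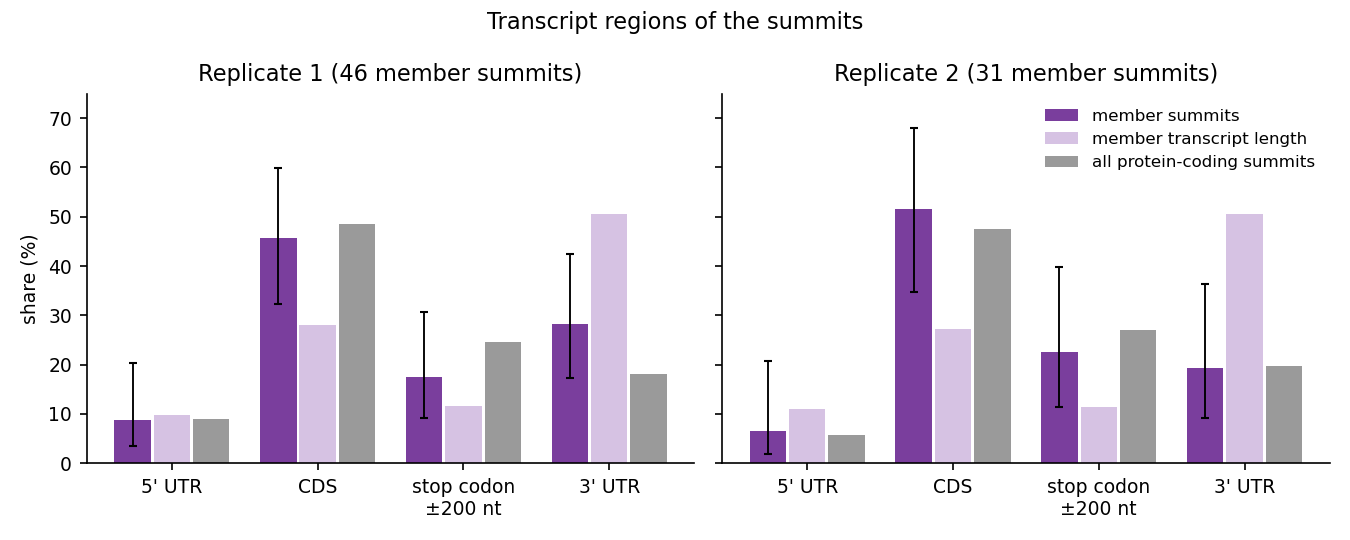
Percent (y axis) of member summits by transcript region (x axis) in each replicate, with 95% Wilson intervals as error bars, beside the percent of the members' transcript length in that region and the percent of all protein-coding summits. CDS holds 45.7% and 51.6% of the member summits but 28.0% and 27.2% of the length, and the 3′ UTR holds 28.3% and 19.4% of summits but 50.6% of the length.

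Exon structure was examined in the same way. The last exon held 29 of 46 summits in replicate 1 (63.0%, interval 48.6% to 75.5%) and 22 of 31 in replicate 2 (71.0%, 53.4% to 83.9%). Over all protein-coding genes it held 48.2% and 56.4%. The last exon made up 72.6% and 74.0% of the members' transcript length, more than their share of summits, and 49.1% and 50.7% over all genes. The strongest peak of the gene was in the last exon for 15 of the 17 genes in replicate 1 and 16 of 17 in replicate 2. DUSP10 was outside in both, and DUSP6 in replicate 1. The same count is not given for all protein-coding genes, and the last exon is most of the members' transcript length. In internal exons, the members' summits lay in exons with a median length of 403.5 nt in replicate 1 (8 summits) and 436.5 nt in replicate 2 (6 summits), while the median internal exon of the members was 151.5 nt. Over all genes these values were 419 and 683 nt against 123 nt. These medians are not alike, since a median over summits gives long exons more weight than a median over exons does. The latter also includes exons of genes without a peak, so the gap alone does not show a preference for long exons.

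Most summits lay away from splice junctions, as did most of the transcript length. At least 100 nt from the nearest junction lay 42 of 46 summits in replicate 1 (91.3%) and 29 of 31 in replicate 2 (93.5%), where 83.7% and 84.8% of the transcript length does. For all protein-coding genes the shares were 81.4% and 91.6%, and 63.9% and 67.1% of the length. The summits nearest to a junction were those of SPRED2 exon 5 at 13 nt, DUSP4 exon 2 at 21 nt and SPRY4 exon 1 at 48 nt, all with a fold enrichment under 5.

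The members were set beside other genes of the RAS-ERK pathway, in a list that also holds 7 stress kinases, among them JNK and p38 kinases. Of the 47 genes of this list, 25 had an exonic peak in both replicates (53.2%), beside 41.1% adjusted for length. A peak in replicate 1 alone was found for 14 of them and for 9.02% of all protein-coding genes. Receptors and adaptors had 9 of 15 in both (6.9 genes adjusted for length), RAS and its brakes 3 of 8 (3.24), and the kinases from RAF to ERK 3 of 8 (3.47). The stress kinases had 4 of 7 (2.94) and ERK targets 6 of 9 (2.8). The MEK genes MAP2K1 and MAP2K2 had no exonic peak in either list. The largest values belonged to MAPK11, a p38 kinase (14.1 and 13.4), FRS2, an adaptor of FGF receptors (19.1 and 8.45), GAB1, an adaptor (14.4 and 8.87), and SOS2, a RAS activator (10.0 and 7.88), followed by the ERK target EGR1 (7.3 and 10.4). Among other feedback inhibitors, 5 of 8 SOCS family genes had peaks in both replicates, and among non-receptor tyrosine phosphatases of the PTPN family 7 of 17 did. Adjusted for length, all protein-coding genes would give 3.01 and 7.53 genes. These differences between lists were not tested.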

How the data were processed

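The 2 peak lists were from anti-m6A IP of OE-19 RNA. The methods describe fragmented total RNA incubated with the antibody, whereas the labels describe cells fixed with UV and lysed. The authors aligned the reads to hg38 and called peaks per sample with MACS2. The aligner is HISAT2 in the submitters' processing notes, which also list fastp, and TopHat2 in the methods. Tool versions, and whether the input was the control in peak calling, are not given in the sources used here.

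The deposited lists give summit fold enrichment as a ratio over the caller's local background. The deposited lists also hold p-value and q-value columns as −log10, a score that was not used, and the offset of the summit from the peak start. No q exceeded 0.0491 (replicate 1) or 0.0497 (replicate 2), as a default threshold of 0.05 would leave. The lists hold no read counts, so depth is unknown. Fold enrichment depends on the local background, so lists can differ without a change in m6A.

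Members were the protein-coding genes of GENCODE version 44 named DUSP with digits, SPRY1 to SPRY4 and SPRED1 to SPRED3. Chromosome names matched hg38 and 0 peaks ran past a chromosome end. A gene had a peak when a summit lay in one of its exons. Summits in exons of several genes counted for each protein-coding gene, since the lists carry no strand. Positions were read on the transcript with the longest CDS, in 1-based coordinates. An overlap of 1 bp or more made peaks shared, and they were paired when each was the other's largest overlap. The members and lists were chosen with earlier results of these data known, so no test was made on them. Most counts and medians stand beside the same values over all protein-coding genes. Shares adjusted for length are the mean, over a list, of the share in the same twentieth of exonic length. Intervals are 95% Wilson intervals and cover counting error only. Named were all members, and the 5 genes of the pathway and stress kinase list whose paired peaks ranked highest by geometric mean over the replicates. Sequences came from members with the strongest paired peaks outside chromosome 8. The alternatives were other thresholds, overlap rules, windows, summit definitions, transcripts, an equal number of peaks per list, and each replicate left out. The scripts were tested on simulated summits. Scripts ran under Python 3.11.15 with pysam 0.24.0, pandas 2.3.3, numpy 2.4.6, matplotlib 3.10.9 and scipy 1.17.1.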

Additional observations from a re-analysis of the deposited data

Results flagged for a closer look

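Peaks in the members' gene bodies with the summit outside annotated exons entered none of the counts above, and they drew attention as a signal in data left outside the comparisons. In replicate 1 these were peaks of DUSP22 (fold enrichment 5.12, 16 nt from an exon), SPRY1 (4.07, 306 nt away) and SPRY2 (3.71, 6 nt away). In replicate 2 they were peaks of SPRED1 (5.3, 1281 nt away), SPRED2 (3.27, 3 nt away) and SPRY2 (4.24, 8 nt away). The SPRY2 peak was shared by both replicates, and the SPRED2 peak overlapped the replicate 1 peak of exon 5. The peaks of DUSP22, SPRY2 and SPRED2 reached into an exon, and with any overlap of a peak with an exon the number of genes with a peak in both replicates stayed at 17. No input list was analysed here as a control, and their source was not tested.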

How the results depend on the processing

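Of 97 recomputed values of 15 results, 82 stayed within the margin of the reported value (its 95% interval, 1.5 times a count, or the spread between replicates). Only the median log2 ratio could change sign, and it stayed positive. With a fold enrichment of 5 or more, a peak in both replicates was left for 10 genes, 26 and 12 exonic peaks were left in replicates 1 and 2, with medians of 6.77 and 6.56, 42.3% of those in replicate 1 were shared, and 78.3% and 91.7% of summits lay in the last exon. The threshold itself lowers the counts and raises the medians. It was applied to both lists, so a replicate 1 peak at 5 or more counted as unshared when its replicate 2 partner was below 5. DUSP6 exon 2, with 6.6 and 2.87, was 1 such peak. The lower sharing therefore does not mean that stronger peaks were found again less often. The cause of the change in the last-exon share was not tested. Over all protein-coding genes sharing came to 49.1%, and the last-exon shares to 54.7% and 61.4%. In replicate 2, 78.8% of peaks were shared with an overlap of 50% of both peaks and 75.8% with summits within 100 bp, and 6.45% of summits lay within 100 nt of the stop codon. GGAC was present at 24.0% and 30.3% of summits within 25 nt and at 76.0% and 75.8% within 100 nt, as a narrower or wider window would give. Leaving out a replicate gave 18 to 20 genes with a peak. No paired analysis was possible because the input samples, which share replicate numbers with the IP, had no peak list here. The lists hold no read counts, so depth set no limit that could be stated, and the small number of member peaks sets the precision.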
